A study of Mus musculus with 16 samples.

Results

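Ighm, Ighd, Igha and Ighg1 encode the constant regions of the mouse immunoglobulin heavy chains μ, δ, α and γ1, and Jchain encodes the joining chain of polymeric antibodies. The set was defined by gene name, with no threshold on a measured value, and holds 5 of the 11713 genes in the deposited table. Their transcripts were followed across splenic B cells and plasma cells and set against antibodies to IgM and IgD read from the same droplets. All cells came from spleens of female BALB/cJ mice aged 9 months, and the labels give no treatment or genetic change. CITE-seq, a droplet method, counted polyadenylated RNA as unique molecular identifiers (UMIs, 1 per captured molecule) and DNA-tagged antibodies as tag counts. The 16 labelled samples form 4 groups of 4, namely the RNA and the antibody samples of the sources Main1 and Main2, and each source was handled as 1 library. The design text speaks of 2 spleens, and whether each source is one of them is not stated in the labels.

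Main1 held 3179 droplets with 7964712 UMIs and Main2 held 3918 droplets with 10174799 UMIs, with medians of 1789 and 1778 UMIs per droplet. B, T and myeloid gates were set on antibodies alone, and neither IgM nor IgD took part. The B gate required at least 2 B-lineage antigens and no CD3, CD11b, F4/80 or Ly6G, and it held 2223 droplets of Main1 and 2836 of Main2. The T gate (CD3 without a B antigen) held 274 and 327 droplets, and the myeloid gate (CD11b, F4/80 or Ly6G without CD3 or a B antigen) held 206 and 243. Plasma cell-like droplets, 33 in Main1 and 47 in Main2, were a transcriptome cluster made without any immunoglobulin gene or Jchain, and they were kept out of the 3 gates. Of the B gate, 98.9% fell in B cell-like clusters, and of the T gate 94.5% fell in T cell-like clusters. All 10 B cell markers were higher in the B gate than in the T gate and all 10 T cell markers were lower (edgeR's quasi-likelihood test, adjusted p under 0.05). Droplets positive for CD3 together with B antigens, 125 and 140, were in none of the 3 gates.

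A mature B cell makes μ and δ chains from one long transcript, which is cut and spliced either after the μ exons or after the δ exons, so that IgM and IgD with the same binding site stand on the surface. Class switching deletes the DNA between the μ exons and a downstream constant region and joins that region, such as γ1 or α, to the same variable exon. A plasma cell secretes its chain in bulk, and the J chain links IgM into pentamers and IgA into dimers through a cysteine in the tail of the secreted μ and α chains. In GENCODE vM21 (GRCm38, the mm10 build) the heavy chain genes lie on the minus strand of chromosome 12. Ighm spans 12:113418558-113422730, Ighd 12:113406604-113416324, Ighg1 12:113325240-113330523 and Igha 12:113254830-113260236. Ighm and Ighd are thus 2233 bases apart, Ighd and Ighg1 76080 bases, and Ighg1 and Igha 65003 bases. Jchain lies elsewhere, at 5:88519809-88527891 on the minus strand. The annotated 3′ end of the membrane form lies 2183 bases beyond that of the secreted form in Ighm and 3872 bases beyond it in Igha. The deposited counts give 1 value per gene, so they do not separate membrane from secreted messages.

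The last coding bases of the secreted forms show which of these chains carry the tail that the J chain binds. Each line gives the last 20 codons and the stop codon, 5′ to 3′ on the coding strand, from the GENCODE vM21 transcripts. Capitals mark a cysteine codon that stands just before the last amino acid, as found in the μ and α tails.
Ighm secreted form, exon 4 of 4, 12:113420867-113420929: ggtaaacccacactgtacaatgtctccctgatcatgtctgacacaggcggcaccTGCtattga
Igha secreted form, exon 3 of 3, 12:113258768-113258830: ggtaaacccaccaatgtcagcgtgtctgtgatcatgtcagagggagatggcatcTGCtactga
Ighg1 secreted form, exon 4 of 4, 12:113328976-113329038: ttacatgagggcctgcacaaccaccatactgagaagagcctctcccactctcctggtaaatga
Ighd secreted form, exon 4 of 4, 12:113409578-113409640: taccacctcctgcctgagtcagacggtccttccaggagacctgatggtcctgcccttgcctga
Ighm and Igha shared 41 of the 60 coding bases before the stop codon (68.3%) with the ends aligned, whereas Ighm shared 17 with Ighg1 (28.3%) and 15 with Ighd. The reference genome is that of C57BL/6, and reads lost or moved because BALB/c carries other alleles of these genes were not tested.

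To place the 5 genes across cell types, UMIs were summed per gate and library and scaled to 1000000 UMIs over all genes (CPM). Plasma cell-like droplets, 1.04% and 1.20% of all droplets, held most of the RNA of 3 members. They carried 94.3% of all Jchain UMIs in Main1 and 88.0% in Main2, 92.3% and 71.8% of all Igha UMIs, and 51.5% and 63.6% of all Ighm UMIs. For Ighd the shares were 0.167% and 0.199%. Ighg1 was split by library, since plasma cell-like droplets held 0 of its 44 UMIs in Main1 and 91.7% of its 1775 UMIs in Main2.

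Ighm reached 73844 CPM in the plasma cell-like droplets of Main1 and 79870 CPM in those of Main2, against 2870 and 2763 CPM in the B gate, 350 and 428 CPM in the T gate, and 349 and 420 CPM in the myeloid gate. Jchain reached 77166 and 71097 CPM in plasma cell-like droplets, against 145 and 226 CPM in the B gate and 126 and 161 CPM in the myeloid gate. For both genes the plasma cell-like sums stood far above all gates in both libraries, and no gate overlapped them. Igha had 27517 and 10496 CPM in plasma cell-like droplets, against 67.3 and 47.8 CPM in the B gate. Ighd ran the other way, with 36.1 and 28.9 CPM in plasma cell-like droplets, against 937 and 964 CPM in the B gate. Its 95% exact Poisson intervals in plasma cell-like droplets, 15.6 to 71.2 and 14.9 to 50.5 CPM, covered its levels in the T gate (41.1 and 35 CPM) and the myeloid gate (46.9 and 29.0 CPM). Intervals on UMI sums cover counting error only.

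**Figure D1:**
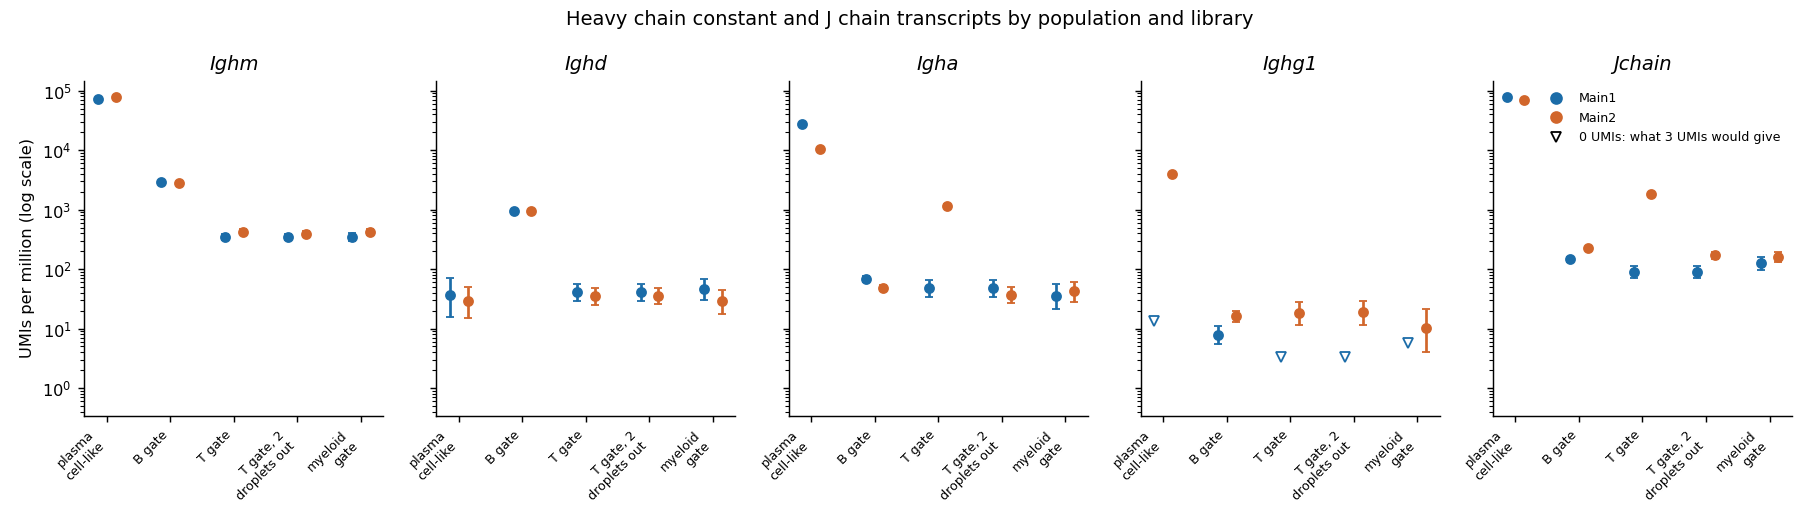
Summed level of each gene (CPM, log axis) in plasma cell-like droplets and in the B gate, the T gate with and without 2 droplets described below, and the myeloid gate, with Main1 and Main2 as separate points and bars for 95% exact Poisson intervals; open triangles mark sums with 0 UMIs, drawn at the level that 3 UMIs would give. Ighm, Igha and Jchain are highest in plasma cell-like droplets in both libraries, and Ighd is highest in the B gate.

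T cells and myeloid cells should carry no antibody message, so UMIs of these genes in their gates were taken as the background of these libraries. Free RNA and multiplets cannot be told apart in it. Of the 449 myeloid droplets, 100 were dendritic cell-like and 50 red pulp macrophage-like, the class of cluster 14 described below. The dendritic cell-like class holds cluster 10, also described below, among other clusters. Cluster 10 had medians of 406 and 366 B220 tags, far above the 23 and 24 of the myeloid gate. How many of its droplets lay in that gate is not given here. The B gate was tested against them on the sums, with library as a block, over 9343 genes. Ighm was 7.55-fold higher in the B gate than in the T gate (log2 fold change 2.92 ± 0.12 SE, edgeR adjusted p = 4.3e-17) and 6.85-fold higher than in the myeloid gate (2.78 ± 0.12, adjusted p = 1.3e-16). Ighd was 26.1-fold higher than in the T gate (4.70 ± 0.15, adjusted p = 3.3e-19) and 23.9-fold higher than in the myeloid gate (4.58 ± 0.17, adjusted p = 4.2e-18). Both members thus rose in the B gate in each library and against each gate. Ighg1 was not called in either comparison (log2 fold changes 0.40 and 1.06, adjusted p = 0.558 and 0.218). It had 7.82 and 16.2 CPM in the B gate, against 0 and 18.4 CPM in the T gate and 0 and 10.1 CPM in the myeloid gate. The 3 UMIs that a count of 0 allows would give 3.33 CPM in the T gate of Main1 and 5.63 CPM in its myeloid gate.

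Igha and Jchain were lower in the B gate than in the T gate in the fit of all droplets (log2 fold changes -2.77 and -1.66, edgeR adjusted p = 0.000178 and 0.00303). That direction was not kept when 2 droplets of the Main2 T gate were left out. One of them, in a monocyte-like cluster, held 14252 UMIs with 1283 Igha and 1793 Jchain UMIs and 4 Ighm UMIs. It had 9 CD3 tags and 373 CD11b tags. The other, in a T cell-like cluster, held 3226 UMIs with 39 Ighm, 79 Jchain and 0 Igha UMIs, so it gave none of the Igha UMIs. Both were singled out after their values were seen. Without them the Main2 T gate had 37.3 CPM of Igha, against 1159 CPM with them, and 170 CPM of Jchain, against 1805 CPM with them. The B gate was then higher for both genes (Igha 0.49, adjusted p = 0.0303; Jchain 0.58, adjusted p = 6.8e-05). In Main1, which held neither droplet, the log2 ratios of CPM in the B gate over the T gate were 0.49 for Igha and 0.69 for Jchain. Against the myeloid gate neither gene was called (0.78, adjusted p = 0.503, and 0.45, adjusted p = 0.520), although both were called higher when no filter on low counts was applied (0.87 and 0.54, adjusted p = 0.0368 and 0.00222). With positivity judged within each droplet both were called lower (-3.67 and -2.41, adjusted p = 0.00101 and 0.000975). Of the 5 members, 4 were called between the B and T gates, 2 in each direction, where 29.3% of all genes were called, 13.6% higher and 15.7% lower. Between the B and myeloid gates 2 of 5 were called, both higher, where 35.5% of all genes were called, 15.8% higher and 19.8% lower. The members' median log2 fold change was 0.40 and 1.06 in these comparisons, beside medians of all genes of -0.0026 and 0.051.

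Per droplet, this background took a different share of the B-gate signal for each gene. B-gate droplets carried a mean of 5.78 and 5.48 Ighm UMIs in Main1 and Main2, against 1.15 and 1.37 in the T gate without the 2 droplets and 0.903 and 1.19 in the myeloid gate. The T-gate mean was thus 19.9% and 25% of the B-gate mean. For Ighd the B gate had 1.89 and 1.91 UMIs per droplet, against 0.135 and 0.123 in the T gate, which is 7.16% and 6.44% of the B-gate mean. For Igha the B gate had 0.135 and 0.0949 UMIs, against 0.157 and 0.129 in the T gate. For Jchain it had 0.292 and 0.449 UMIs, against 0.296 and 0.588. For these 2 genes the average B-gate droplet therefore carried no more UMIs than the average T-gate droplet, in either library. T-gate droplets were also deeper, with medians of 2353.5 and 2620 UMIs, against 1643 in the B gate of each library.

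After each droplet was thinned to 1000 UMIs, so that depth was equal, 89.0% and 89.9% of B-gate droplets had an Ighm UMI, against 28.4% and 33.4% of T-gate and 30.2% and 34.9% of myeloid droplets. Without thinning the shares were 96.0% and 97.2%, against 55.1% and 67.3% of T-gate and 53.9% and 60.9% of myeloid droplets. For Ighd the thinned shares were 57.6% and 58.9% in the B gate, against 3.78% and 3.59% in the T gate (74.5% and 75.4%, against 12.0% and 11.9%, before thinning). The B gate stood clear of both other gates for these 2 genes in both libraries. For Jchain the thinned shares were 12.9% and 17.6% in the B gate, against 9.89% and 18.5% in the T gate and 12.8% and 17.4% in the myeloid gate. For Igha they were 6.42% and 4.39%, against 5.28% and 4.31% in the T gate and 3.84% and 5.47% in the myeloid gate. Before thinning, 22.3% and 30.1% of B-gate droplets had a Jchain UMI, against 24.8% and 44.3% of T-gate droplets, and 11.5% and 7.93% had an Igha UMI, against 14.2% and 12.5%. The order of the gates changed between libraries for Igha and Jchain. Whether a single UMI of either gene in a B-gate droplet came from background was not tested.

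Ratios between members, which do not depend on how much RNA a droplet holds, separated the populations in a second way. Jchain over Ighm was 1.04 and 0.890 in plasma cell-like droplets of Main1 and Main2, against 0.0505 and 0.0819 in the B gate. In the T gate without the 2 droplets it was 0.257 and 0.428, and in the myeloid gate it was 0.360 and 0.383. With the 2 droplets the Main2 T gate gave 4.22. Ighd over Ighm was 0.00049 and 0.00036 in plasma cell-like droplets, against 0.326 and 0.349 in the B gate, 0.117 and 0.0897 in the T gate without the 2 droplets, and 0.134 and 0.0690 in the myeloid gate. In both ratios the T and myeloid gates lay between the plasma cell-like droplets and the B gate in both libraries. Ighm over Igkc, the κ light chain constant gene, was 0.201 and 0.183 in plasma cell-like droplets, against 0.238 and 0.211 in the B gate, 0.332 and 0.256 in the T gate without the 2 droplets and 0.299 and 0.262 in the myeloid gate. With the 2 droplets it was 0.0662 in the Main2 T gate.

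**Figure D2:**
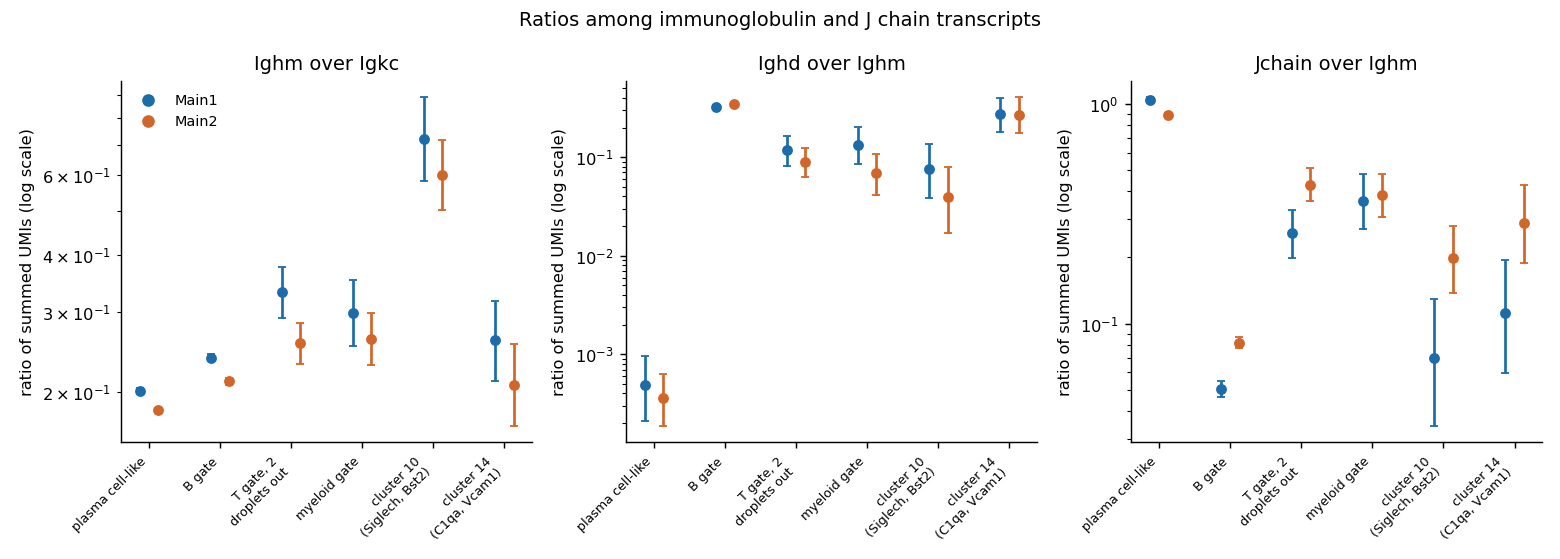
Ratio of summed UMIs for Ighm over Igkc, Ighd over Ighm and Jchain over Ighm (log axes) in plasma cell-like droplets, the B gate, the T gate without 2 droplets, the myeloid gate and clusters 10 and 14, with Main1 and Main2 as separate points and bars for 95% intervals from counting error. The T and myeloid gates lie between plasma cell-like droplets and the B gate for Ighd over Ighm and for Jchain over Ighm.

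Some clusters outside the B cell-like class had a higher ratio of Ighm over Igkc. Cluster 10, with 61 droplets led by Siglech, Bst2 and Ccr9 and placed in the dendritic cell-like class, had a ratio of 0.720 in Main1 (95% interval 0.583 to 0.888) and 0.601 in Main2 (0.502 to 0.718). These values lay above those of the 3 gates and of the plasma cell-like droplets in the same library. Cluster 11, an erythroid-like cluster of 96 droplets led by Car1, had ratios of 0.373 and 0.378, and cluster 19, a dendritic cell-like cluster of 90 droplets led by H2-M2 and Fscn1, had 0.398 and 0.397. These, and the B cell-like cluster 7 (0.349 and 0.301), also lay above the 3 gates in both libraries. In Main1, however, the values of clusters 7 and 11 lay within the T gate's 95% interval, 0.291 to 0.377. The Ighm level of cluster 10 was 1363 and 1407 CPM, against 350 and 396 CPM in the T gate without the 2 droplets. Cluster 14, a red pulp macrophage-like cluster of 101 droplets, had 1291 and 1079 CPM of Ighm but ratios to Igkc of 0.260 and 0.208, near those of the gates. These clusters are described without a test. How far droplets holding more than 1 cell entered their levels was not tested.

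Within the plasma cell-like droplets, the heavy chain message of each droplet was almost pure. The heavy chain with the most UMIs made up at least 97.5% of the heavy chain UMIs in each of the 80 droplets. Ighm led in 69 droplets (86.2%), Igha in 9, Ighg2b in 1 and Ighg1 in 1. By library, Ighm led in 26 of 33 droplets in Main1 (78.8%, exact 95% interval 61.1 to 91.0) and in 43 of 47 in Main2 (91.5%, 79.6 to 97.6). Igha led in 6 of 33 (18.2%, 6.98 to 35.5) and in 3 of 47 (6.38%, 1.34 to 17.5), so the libraries' intervals overlapped for both chains. Ighd led in no droplet, and the 14 droplets with an Ighd UMI had at most 2.

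Single plasma cell-like droplets set the level of the rarer chains. In each library 1 droplet held 38.4% of all Igha UMIs, and in Main2 the 1 droplet led by Ighg1 held 1613 UMIs of that gene, 90.9% of the library's total. The droplet led by Ighg2b, in Main1, had 502 UMIs of that gene among 510 heavy chain UMIs. The γ genes are near-identical in parts, so reads of Ighg1, Ighg2b, Ighg2c and Ighg3 could be assigned to each other. The CPM of Igha and Ighg1 in plasma cell-like droplets therefore describe few cells.

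Jchain was present in all 80 plasma cell-like droplets, from 12 to 2099 UMIs with a median of 448.5, whichever heavy chain led. Its median was 380 UMIs in the 69 droplets led by Ighm and 514 UMIs, with a range of 270 to 939, in the 9 droplets led by Igha. The droplet led by Ighg1, the chain whose printed tail has no cysteine codon in capitals, held 488 Jchain UMIs, and the one led by Ighg2b held 381. Heavy chain UMIs ran from 15 to 2793 with a median of 510 in droplets led by Ighm, and from 163 to 2540 with a median of 587 in those led by Igha. Heavy chain and Jchain UMIs together made up a median of 18.2% of a plasma cell-like droplet's UMIs in Main1 and 17.6% in Main2. Across droplets led by Ighm, Ighm UMIs were higher where the droplet's other UMIs were higher (Spearman's rho 0.630 over 26 droplets of Main1 and 0.710 over 43 of Main2, which share their depth). As shares of a droplet's UMIs, Jchain and the heavy chains showed no steady relation (rho -0.135 and 0.164). One Main2 droplet departed from the rest, with 15 Ighm UMIs beside 354 Jchain and 2975 Igkc UMIs, and 5 IgM tags.

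The IgM antibody separated the plasma cell-like droplets by their leading chain. Droplets led by Ighm had a median of 91.5 IgM tags in Main1 and 94 in Main2, against 7.5 and 6 in those led by Igha, 5 in the one led by Ighg1 and 10 in the one led by Ighg2b. T-gate droplets had a median of 6 tags. The highest count among the 11 droplets led by another chain was 32, and 52 of the 69 droplets led by Ighm lay above it (20 of 26 in Main1, 32 of 43 in Main2). Within the droplets led by Ighm, the share of UMIs from Ighm did not follow the antibody (rho -0.0058 and -0.017). The IgD antibody was at a median of 8 tags in the plasma cell-like droplets of both libraries, against 541 and 515 in the B gate and 13 in the T gate.

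**Figure D3:**
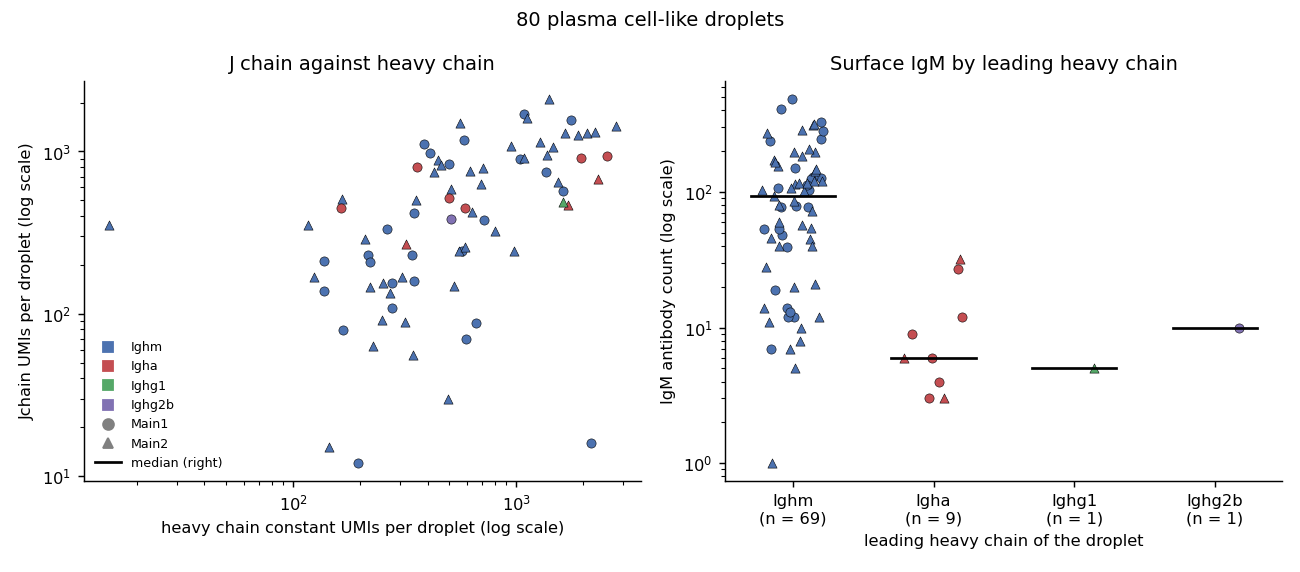
Left, Jchain UMIs against heavy chain UMIs (log axes) in each of the 80 plasma cell-like droplets, coloured by the heavy chain with the most UMIs and with a marker for each library; right, IgM antibody tags by leading chain, with lines at the medians. Droplets led by Igha, Ighg1 or Ighg2b reach at most 32 IgM tags, and 52 of 69 droplets led by Ighm lie above that.

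To ask whether surface IgM and IgD followed their transcripts among B cells, B-gate droplets were ranked by each antibody relative to all other antibodies of the droplet. By quintiles of IgM, from lowest to highest, the median was 11, 20, 27, 42 and 117 IgM tags in Main1. Ighm had 2121, 2519, 2774, 2843 and 4114 CPM in these quintiles, and 2123, 2416, 2608, 2695 and 3920 CPM in those of Main2. Ighm was higher at every step in both libraries, and the largest step was the last. Ighd had 1032, 1172, 994, 977 and 505 CPM across the same quintiles of Main1 and 1137, 1143, 1077, 889 and 596 CPM in Main2, so it was lowest where IgM was highest. By quintiles of IgD, Ighd had 386, 864, 1154, 1121 and 1247 CPM in Main1 and 474, 974, 1083, 1138 and 1298 CPM in Main2, with the largest step at the low end. Ighm had 3851 and 3492 CPM in the lowest quintile of IgD and between 2482 and 2761 CPM in the other quintiles of both libraries.

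**Figure D4:**
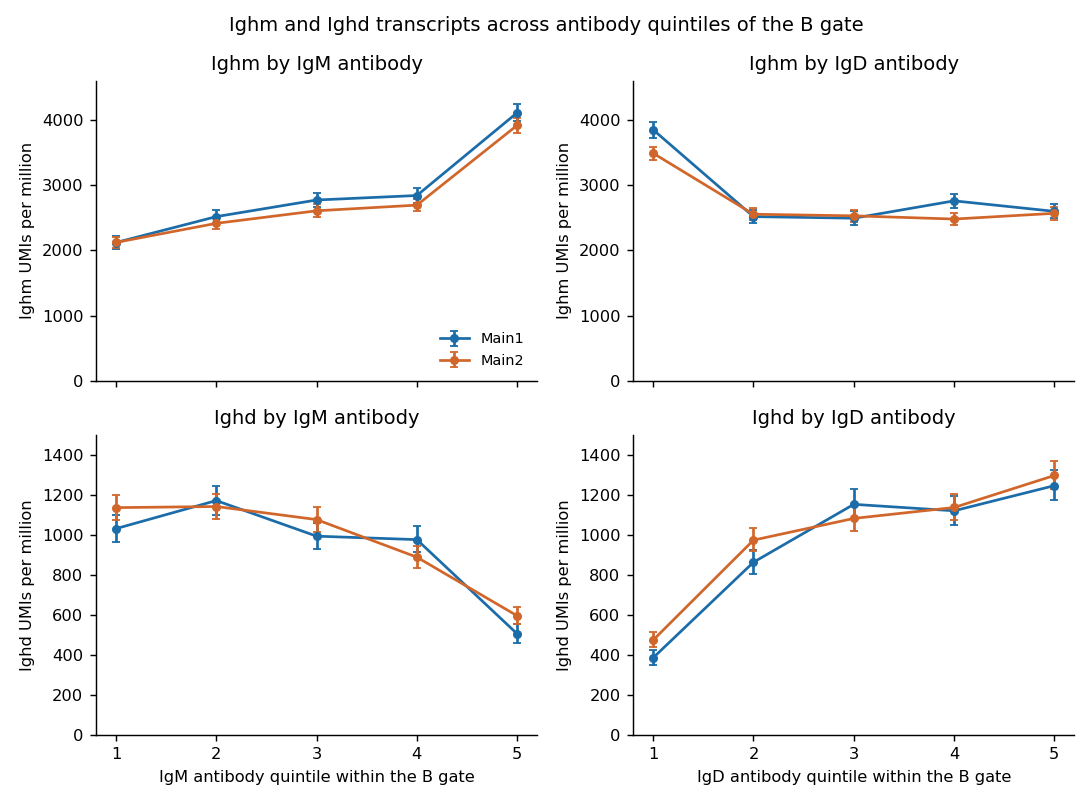
Ighm and Ighd levels (CPM) in quintiles of the B gate by relative IgM antibody and by relative IgD antibody, low to high, with a line for each library and bars for 95% exact Poisson intervals. In both libraries Ighm is highest in the top quintile of IgM, where Ighd is lowest, and Ighd is lowest in the bottom quintile of IgD and highest in its top quintile.

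Droplet by droplet the relations were modest. Over the 2223 B-gate droplets of Main1 and the 2836 of Main2, Spearman's rho of IgM with Ighm was 0.301 and 0.272, and that of IgD with Ighd was 0.321 and 0.277. IgM with Ighd gave -0.229 and -0.241, and IgD with Ighm gave -0.095 and -0.153. The points of a library share its staining, its free RNA and the depth of each droplet, and UMIs of 1 gene per droplet are few. With raw tags and raw UMIs, which both carry the depth of the droplet, IgM with Ighm gave 0.398 and 0.380. The transcripts themselves, as shares of each droplet's UMIs, gave a rho of 0.0040 and -0.013 for Ighm with Ighd. As raw UMIs they gave 0.107 and 0.063. With so few UMIs per droplet, these values cannot show that the 2 transcripts are unrelated.

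For a test of the antibodies, the B gate was cut within each library into tertiles by IgM and by IgD, giving 9 classes. The contrast of each antibody was averaged over the tertiles of the other. Tertiles did not fully match the other antibody. Among IgD-low droplets, IgM-high ones had medians of 137 and 150 IgD tags, against 273.5 and 288 in IgM-low ones. Ighm was 1.45-fold higher in IgM-high than in IgM-low droplets (log2 fold change 0.54 ± 0.034 SE, edgeR adjusted p = 6.9e-29), and Ighd was 0.623-fold (-0.68 ± 0.048, adjusted p = 7.3e-25). Averaged over the IgD tertiles, the CPM of each library alone gave log2 ratios of 0.59 and 0.53 for Ighm and of -0.69 and -0.65 for Ighd. Both differences were largest at low IgD. Ighm there had 4159 and 3902 CPM in IgM-high droplets, against 2251 and 2216 CPM in IgM-low droplets. At high IgD it had 2840 and 2901 CPM, against 2359 and 2284 CPM. Igha, Ighg1 and Jchain were not called (log2 fold changes -0.17, -0.88 and -0.016, adjusted p = 0.775, 0.520 and 0.982). The count was thus 2 of 5 members, 1 higher and 1 lower, where 2.16% of all genes were called (1.09% higher and 1.07% lower), with a median of -0.17 for the members and -0.0047 for all genes. The corner classes made the pattern plain, as droplets that were IgM-high and IgD-low had 4159 and 3902 CPM of Ighm and 327 and 411 CPM of Ighd, and those that were IgM-low and IgD-high had 2359 and 2284 CPM of Ighm and 1382 and 1358 CPM of Ighd.

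Ighd was 1.99-fold higher in IgD-high than in IgD-low droplets (log2 fold change 0.99 ± 0.048 SE, edgeR adjusted p = 5.7e-39), while Ighm was lower (-0.29 ± 0.033, adjusted p = 9.5e-13) and so was Igha (-0.57 ± 0.16, adjusted p = 0.00533). Ighg1 and Jchain were not called (-0.88 and -0.12, adjusted p = 0.342 and 0.613). Here 3 of 5 members were called, 1 higher and 2 lower, where 11.3% of all genes were called (4.6% higher and 6.73% lower), with a median of -0.29 for the members and 0.0096 for all genes. By DESeq2 Igha was not called (adjusted p = 0.0577).

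Genes known to act on these chains moved with the antibodies in part. Of 7 tested genes of heavy chain RNA processing, 1 was called by IgM. Zfp318, a nuclear protein that lets transcription run on to the δ exons in the mouse, was lower in IgM-high droplets (log2 fold change -0.85, edgeR adjusted p = 2.1e-06). In IgD-high droplets it was higher (1.07, adjusted p = 1.1e-09), and Eaf2, an elongation factor, and Srsf3, a splicing factor, were lower (-2.46 and -0.23). Of 10 genes of the B-cell receptor complex and immunoglobulin transcription, 6 were higher in IgM-high droplets and 0 lower, among them Ms4a1, which encodes CD20 (0.50), and Cd79b and Cd79a, the signalling chains of the receptor (0.18 and 0.15). In IgD-high droplets 2 of the 10 were higher and 1 lower. Their medians were 0.20 by IgM and 0.15 by IgD.

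Among 6 tested receptors of antibodies, Fcmr, the IgM receptor, and Fcer2a, which encodes CD23, were lower in IgM-high droplets (-0.66 and -0.45). In IgD-high droplets Fcer2a was higher (0.92) and Fcrl5, an Fc receptor-like protein of B cells, was lower (-3.61). Of 10 genes of antibody assembly and secretion, Mzb1, a chaperone cofactor for μ chains, was higher in IgM-high droplets (0.36), and in IgD-high droplets Mzb1 and Pdia4 were lower and Fkbp11 was higher (-0.49, -0.67 and 1.51). Of 9 tested genes of class switching, 0 were called by IgM with edgeR or DESeq2 (1 had an unadjusted p under 0.05 with each), and 1, the base excision repair gene Apex1, was lower in IgD-high droplets (-0.55). Of the other immunoglobulin constant genes, 3 of 6 were higher and Ighg2b was lower in IgM-high droplets (-1.82), while in IgD-high droplets Igkc was higher and 4 were lower.

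B cell subset markers moved along the same axes. By IgM, 6 of 8 tested marginal zone markers were higher and 4 of 7 follicular markers were lower. By IgD, 6 of 8 marginal zone markers were lower and 7 of 7 follicular markers were higher. Their summed levels were 1837 and 1988 CPM of marginal zone markers in IgM-high droplets, against 1025 and 936 CPM in IgM-low droplets. Erythroid genes differed too. All 5 tested were lower in IgM-high droplets, with sums over the 8 listed genes of 300 and 276 CPM in IgM-high droplets, against 7510 and 2935 CPM in IgM-low droplets. By IgD 4 of 5 tested erythroid genes were lower and 1, Car2, was higher (0.69), and the sums were 352 and 362 CPM in IgD-high droplets, against 6872 and 2540 CPM in IgD-low droplets. Of the 8 erythroid genes, 0 to 2 were at 0 UMIs in these sums. The part of B cell subsets and of erythroid RNA in the member values was not tested.

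A B cell that has switched class would carry neither IgM nor IgD, so the lowest tertile of both antibodies was set against the mean of the other 8 classes. The tertiles are relative. This class still had medians of 12 and 14 IgM tags and 273.5 and 288 IgD tags in Main1 and Main2, against 6 and 13 in the T gate. The 600 droplets that were IgM-low and IgD-low, 280 of Main1 and 320 of Main2, had more of both switched chains. Ighg1 reached 52.7 and 45 CPM there, against 0 to 3.59 CPM in the other classes of Main1 and 5.34 to 15.6 CPM in those of Main2. Its fitted change was 7.85-fold (log2 fold change 2.97 ± 0.33 SE, edgeR adjusted p = 1.7e-12). In Main1 5 of the 8 other classes held 0 Ighg1 UMIs, where 3 UMIs would give 4.63 to 9.37 CPM. In Main2 alone the log2 ratio was 2.04.

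Igha reached 128 and 80.2 CPM in the IgM-low IgD-low droplets, against 40.2 to 71.9 CPM in the other classes of Main1 and 34.9 to 61.4 CPM in those of Main2, so this class lay above all others in each library. It was 2.10-fold higher (1.07 ± 0.16, edgeR adjusted p = 6.9e-08). Without the droplet with the most Igha UMIs in each sum, the log2 ratios were 1.04 in Main1 and 0.54 in Main2. Ighm was 0.820-fold (-0.29 ± 0.044, adjusted p = 2.8e-07) and Ighd was not called (-0.11, adjusted p = 0.395). With classes cut on raw tags, Ighm was not called either (-0.13, adjusted p = 0.238). DESeq2 gave no adjusted p for Igha or Ighg1. Jchain was higher (0.51 ± 0.12, adjusted p = 0.00286), at 254 and 231 CPM. That call was absent when the B gate was limited to B cell-like clusters, a setting chosen after the data were seen (0.082, adjusted p = 0.875), in droplets under 4000 UMIs (0.099, adjusted p = 0.878), without library as a block (0.47, adjusted p = 0.354) and by DESeq2 (0.60, adjusted p = 0.198). In Main2 the Jchain level of 2 other classes rested on single droplets, which gave 91 of 180 UMIs in the IgM-high IgD-high class and 105 of 237 in the IgM-mid IgD-mid class. Limited to B cell-like clusters, Igha was higher by 1.15, Ighg1 by 2.79 and Ighm lower (-0.25) on the log2 scale. In all, 4 of 5 members were called, 3 higher and 1 lower, where 4.66% of all genes were called (3.44% higher and 1.22% lower), and their median was 0.51 beside 0.0076 for all genes.

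**Figure D5:**
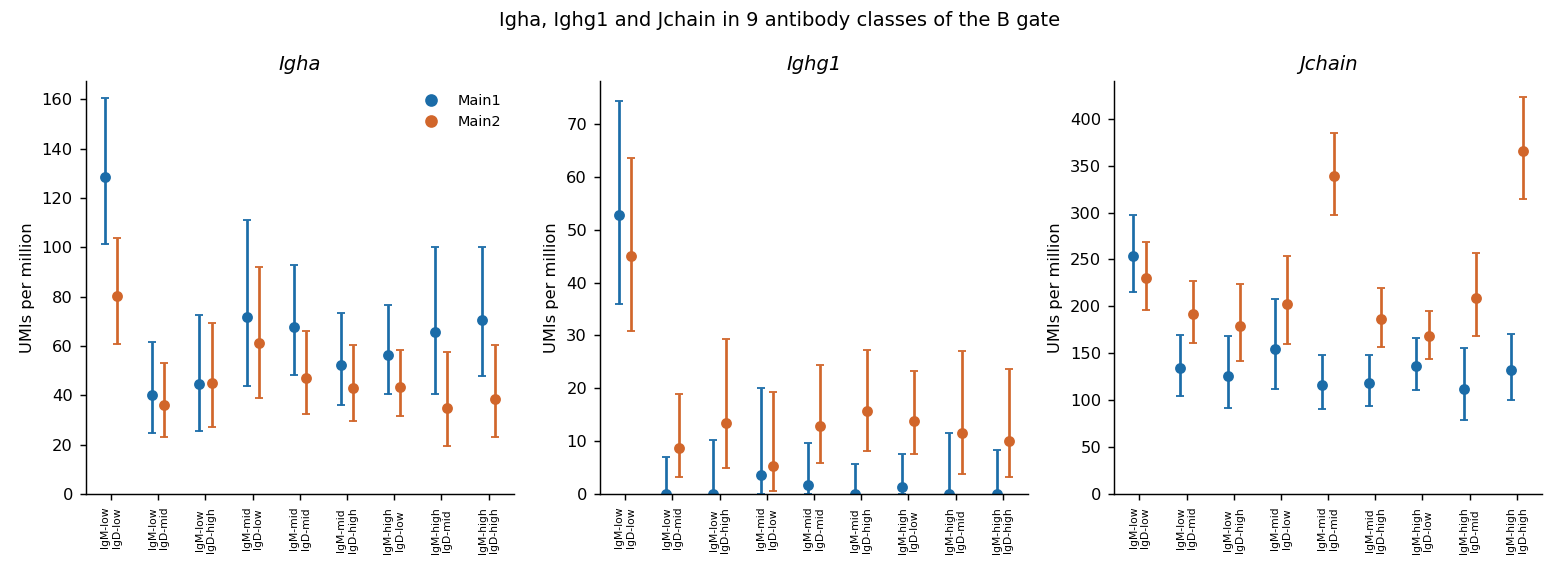
Levels of Igha, Ighg1 and Jchain (CPM) in the 9 classes of the B gate by tertiles of IgM and IgD antibody, with Main1 and Main2 as separate points and bars for 95% exact Poisson intervals. Igha and Ighg1 are highest in the IgM-low IgD-low class in both libraries, and Jchain varies between the libraries.

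Of 6 other constant genes, 3 were higher and 1 was lower in this class. Ighg2b and Ighg3 were higher (log2 fold changes 3.68 and 1.18, edgeR adjusted p = 3.5e-23 and 0.0244) and Igkc was lower (-0.23). Ighg3 had 24.7 and 21.1 CPM there, and in Main2 the IgM-high IgD-low class was above it, at 24.7 CPM. Ighg2b had 132 and 32.3 CPM there. Of the B-cell receptor list, 6 of 10 genes were lower and 0 higher, with a median of -0.26. The erythroid genes were higher in 5 of 5 tested, with a median of 5.52 and sums of 17811 and 7018 CPM, against 333 and 708 CPM in the other classes. Of the 600 droplets, 25 lay outside the B cell-like clusters, and 61 (10.2%) lay in cluster 6, which held 4.8% of the B gate. The part of erythroid RNA in the member values was not tested.

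Single droplets showed where the switched transcripts sat. In the B gate 22 droplets, 13 of Main1 and 9 of Main2, had 5 or more UMIs of Igha, Ighg1, Ighg2b or Ighg3, and of these 21 were in the IgM-low IgD-low class, against 11.5% of the other 5037 B-gate droplets. Their median was 5 IgM tags and 19 IgD tags, against 31 and 526 in the other droplets. Ighm had 0 or 1 UMI in 11 of the 22 (50%), against 549 of the others (10.9%). Both antibodies were thus near the T-gate medians of 6 and 13 tags in the typical droplet of this kind. Igha reached 5 UMIs in 6 of them, with a highest value of 17, and Ighg1 in 5, with a highest value of 13. Ighg2b did so in 11 and Ighg3 in 1. Their median was 0 Jchain UMIs. Among the 1050 T-gate and myeloid droplets, 1 reached 5 Igha UMIs, the monocyte-like droplet described above, and 0 reached 5 UMIs of a γ gene. A count of 0, taken to allow 3 droplets, allows a share of up to 1.09% of T-gate droplets and 1.46% of myeloid droplets in Main1.

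CD21/35, the complement receptor encoded by Cr2, is high on marginal zone B cells, and the B gate was also divided by it. Ighm had 2562 and 2503 CPM in the top 15% by CD21/35, against 3062 and 2927 CPM in droplets below the top 25%. The difference was small but called (log2 fold change -0.17 ± 0.051 SE, edgeR adjusted p = 0.0134). Ighd had 881 and 764 CPM, against 964 and 1043 CPM (-0.22 ± 0.063, adjusted p = 0.00770). Igha, Ighg1 and Jchain were not called (-0.31, -0.80 and -0.11, adjusted p = 0.287, 0.172 and 0.607). This gave 2 of 5 members, both lower, where 8.55% of all genes were called (5.01% higher and 3.55% lower), with medians of -0.22 and 0.0093. Neither call stood without library as a block (edgeR adjusted p = 0.284 for Ighm and 0.288 for Ighd) or by DESeq2 (adjusted p = 0.0700 and 0.251). Raw antibody tags were higher in CD21/35-high droplets, with medians of 74 and 94 IgM tags and 804 and 634 IgD tags. CD21/35-low droplets had 24 and 27 IgM tags and 491 and 490 IgD tags. B220 was also higher, at 968.5 and 839 tags, against 538 and 533, in the deeper CD21/35-high droplets. Unlike CPM, these tags were not scaled for depth, so their direction cannot be set against that of the transcripts.

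Other definitions of the groups gave other values for Ighm. When the top 25% by CD21/35 with IgD under the median was set against droplets below that top 25% with IgD at or above the median, Ighm was higher (0.21, edgeR adjusted p = 0.00133) and Ighd was lower (-1.39), and these groups differ in IgD by construction. With CD21/35 taken relative to the other antibodies, the Ighm difference was -0.030 (adjusted p = 0.876) and Ighd remained lower (-0.69). CD21/35-high droplets were deeper, with medians of 2613 and 2580 UMIs, against 1532 and 1521. All 8 tested marginal zone markers were higher, Cr2 among them, and 4 of 7 follicular markers were lower. All 5 tested erythroid genes were lower (median -4.07), with sums of 290 and 251 CPM in CD21/35-high droplets, against 3972 and 2151 CPM. The other immunoglobulin constant genes were lower in 5 of 6, led by Iglc1 (-0.99). The part of depth, erythroid RNA and the other immunoglobulin genes in the Ighm value was not tested.

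Across the B cell-like clusters, which were made without these genes, Ighm and Ighd did not keep one order. Cluster 7, led by Vpreb3, a pre-B lymphocyte gene related to the surrogate light chain, had the most Ighm, at 5799 and 5516 CPM, with 861 and 999 CPM of Ighd and medians of 90 IgM and 170 IgD tags. Cluster 6, led by Bhlhe41, Zbtb32 and Fcrl5, came next with 3706 and 4040 CPM of Ighm, but only 323 and 405 CPM of Ighd. Cluster 6 also had 261 and 98.8 CPM of Igha, or 154 and 65.3 CPM without the droplet with the most Igha UMIs in each library. Cluster 8, led by Cr2, S1pr3 and Hes1, had 2809 and 2579 CPM of Ighm and 551 and 486 CPM of Ighd. Cluster 1 had 2713 and 2664 CPM of Ighm and 1145 and 1181 CPM of Ighd, and clusters 0, 2, 3 and 5 had between 2152 and 2679 CPM of Ighm. Cluster 21, led by Nfkbid and Nr4a1, had 1765 and 2374 CPM of Ighm and 725 and 910 CPM of Ighd. Clusters 8 and 1 changed places between the libraries, as did clusters 0 and 2. These values are a description and were not tested.

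The genes most like each member were sought over 38 points (clusters by library) as Pearson's r of log2(CPM + 10) among 7003 genes. Ighm was nearest to Iglv1 (0.928), Igkc (0.922) and Mzb1 (0.891). Ighd was nearest to Cd55 (0.959), Gm31243 (0.954) and Bank1 (0.944), with none of the other members among them. With all droplets, Igha was nearest to Jchain (0.917), Derl3 (0.840), a gene of the endoplasmic reticulum's protein disposal, and Igkv6-17 (0.788), and Jchain to Igha, Derl3 (0.878) and Igkv4-74 (0.850). The monocyte-like droplet with 1283 Igha UMIs set 1 of these points. Without the 2 T-gate droplets, a setting chosen after the data were seen, Ighm was nearest to Igkc (0.962) and Igha with Jchain gave 0.91, but Derl3 was nearest to Igha (0.917) and Igkv4-74 to Jchain (0.934). Ighg1 was nearest to Igkv4-70 (0.930), Igkv8-19 (0.891) and Igkv6-32 (0.859), all κ variable genes, and the plasma cell-like points, which rest on few cells, weigh heavily in these values. Over the 18 sums of the 9 classes, Ighm was nearest to Tmsb4x (0.897), Ms4a1 (0.896) and Ptprj (0.878), and Ighd to Fchsd2 (0.962), Hvcn1 (0.957) and H2-Aa (0.95). The points of a library share its depth and free RNA.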

How the data were processed

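Per the deposited tables, each gene and each antibody has a whole-number count in each droplet, with no normalization. Polyadenylated RNA and standard CITE-seq and 10x libraries were used, per the labels' protocols. The submitters' processing notes list bcl2fastq, Cell Ranger 3.0.2 and the build mm10. The sources used here do not name the antibody counter. The gene table had been filtered, as its rarest genes were found in 15 droplets and mitochondrial genes numbered 0. Droplet names starting with m1 and m2 were read as Main1 and Main2, and no column divides a library into its 4 labelled samples. The libraries shared 14 barcodes. Of 11713 identifiers, 11682 matched GENCODE vM21, whose coordinates are 1-based. The 5 members, the gene lists and the tests were chosen with earlier results of these data known.

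Antibody counts were centred-log-ratio transformed, and a droplet was positive above a posterior of 0.5 in a mixture of 2 components (scikit-learn 1.9.0). The full list of B-lineage antigens in the gates is not reported here. No droplets were removed and no doublet caller was run. Variable genes were clustered with scanpy 1.11.5 and igraph 0.11.9, without immunoglobulin and T-cell receptor genes or Jchain, with a resolution of 1. Tertiles and quintiles used the log of each antibody's count over the droplet's other antibody counts, within a library. Counts were summed per population and library, genes under 50 UMIs in the sums were left out, and edgeR 4.0.16 (R 4.3.3, quasi-likelihood test, TMM, Benjamini-Hochberg over all genes tested) was fitted with library as a block, since both populations of a comparison come from the same libraries. Residual degrees of freedom were 2 for the gates, 2 for CD21/35 and 8 for the antibody classes, so p-values cover at most the spread between 2 libraries, which may be technical. The prior degrees of freedom, from the spread shared by all genes, were 23.1, infinite and 120. The p-values thus rest mostly on that shared spread, and for CD21/35 a gene's own spread had no weight. Each edgeR SE is the absolute log2 fold change over the square root of the test's F statistic. DESeq2 1.42.0 was an alternative. On simulated counts, 4-fold changes were recovered in 97.0% of genes for the B gate against the T gate, 88.7% for CD21/35 and 94.6% for IgM, and 2-fold changes in 50%, 51.7% and 60.2% (9687, 8421 and 8434 genes simulated). The simulation held no library difference. Its dispersion was fixed, above the fitted common values of 0.0071, 0.0014 and 0.0035, so these rates do not give the power of the fits. All 5 members were named in every comparison, list genes by lowest p and like genes by highest r. Intervals are exact Poisson or Clopper-Pearson (scipy 1.17.1) and cover counting error only.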

Additional observations from a re-analysis of the deposited data

Results flagged for a closer look

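Droplets outside all gates, with plasma cell-like droplets left out, numbered 443 in Main1 and 465 in Main2 and entered no comparison. A few of them held switched transcripts above the 5 UMIs that T-gate and myeloid droplets did not reach apart from 1 droplet. For Igha there were 4 such droplets, with 14 and 48 UMIs in Main1 and 14 in Main2, all 3 in cluster 6, and with 7 UMIs in Main2 in cluster 14. For Ighg1 there were 2, with 7 UMIs in Main1 and 6 in Main2, both in cluster 6. The antibodies of these droplets met none of the 3 gate definitions. How far such droplets hold more than 1 cell was not tested.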

How the results depend on the processing

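Of 368 alternative log2 fold changes of the members, 282 kept their direction and side of the threshold, 16 lost the call, 8 gained one, 38 changed direction and 24 values with no test moved by more than their error; 5 DESeq2 values had no adjusted p, and 6 values of 1 library alone could not be given because Ighg1 was at 0. Ighm and Ighd kept their direction in every alternative run for the gate, IgM and IgD comparisons, and their call in every one that gave a test. The cause of a change was not tested unless the setting itself shows it. Ighg1 (35 and 91 UMIs in Main1 and Main2), Igha (301 and 269) and Jchain (649 and 1273) had the smallest B-gate sums of the members. The part of these small sums in the changes was not tested.

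Without the replicate block, with library left out of the fit, the genes called were 230 for CD21/35 (721 with it), 105 for IgM (182) and 202 for IgM-low IgD-low (393). Members called by CD21/35 were then 0, Jchain by IgM was 0.00084, and no other member changed direction. With DESeq2, genes called were 1280 for B against T (2741 in edgeR), 1818 for B against myeloid (3320), 189 for CD21/35, 85 for IgM, 460 for IgD (955) and 165 for IgM-low IgD-low. Members called were 2 for B against T, 0 for CD21/35 and 1 for IgM-low IgD-low. In droplets under 4000 UMIs, members called were 2 for B against T and 1 for CD21/35, and genes called were 570 for IgD and 160 for IgM-low IgD-low. Igha was then 0.21 and Ighg1 -0.011 for B against T, and Jchain was 0.14 for CD21/35, 0.10 for IgM and 0.042 for IgD. Ighd was 0.056 for IgM-low IgD-low. With raw IgM and IgD counts, genes called were 328 for IgM, 454 for IgD and 79 for IgM-low IgD-low, members called were 5 for IgD and 2 for IgM-low IgD-low, Jchain was 0.030 for IgM and Ighd 0.079 for IgM-low IgD-low.

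With no filter on low counts, 4 members were called for B against myeloid. Positivity judged within each droplet also gave 4, with Igha -3.67 and Jchain -2.41, and gave Igha 0.84 and Jchain 0.21 for B against T. With plasma cell-like droplets kept in the gates, Jchain was 0.31 for B against T, -1.20 for B against myeloid, 3.09 for IgM and -0.91 for IgM-low IgD-low, and Igha was -6.32 for B against myeloid. With CD21/35 relative to other antibodies 1 member was called, Igha was 0.080 and Jchain 0.20. With IgD added to the CD21/35 groups, Ighm was 0.21, Igha 0.41 and Ighg1 0.60. Settings chosen after seeing the data were the 2 T-gate droplets left out (Igha 0.49, Jchain 0.58, Jchain over Ighm in Main2 0.428, against 4.22) and the B gate limited to B cell-like clusters (250 genes called for IgM-low IgD-low; Jchain 0.037 for CD21/35, 0.13 for IgM and 0.029 for IgD; Ighd 0.033 for IgM-low IgD-low). Without the top droplet of each sum, Igha was 0.39 and Jchain 0.23 for B against T.

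The libraries alone ranged from -4.60 to 0.49 for Igha, -3.0 to 0.69 for Jchain and -0.18 for Ighg1 in B against T. Jchain ranged from -0.71 to 0.11 by CD21/35, -0.36 to 0.23 by IgM and -0.48 to 0.21 by IgD, and Igha from -0.38 to 0.059 by IgM. The mean rho of the libraries for IgM with Ighm was 0.287, against 0.389 raw and 0.254 thinned to 1000 UMIs, and for IgD with Ighd 0.299, against 0.383 and 0.240.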

Other observations

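Droplets positive for CD3 together with B antigens had 1135 and 1171 CPM of Ighm and 424 and 294 CPM of Ighd in Main1 and Main2. These levels lay between those of the B and T gates for both genes in both libraries. Jchain was at 116 and 367 CPM there. Their medians were 4001 and 3297 UMIs, above the depth of the B and T gates. The droplets outside the 3 gates, these included but plasma cell-like droplets left out, had 1116 and 1133 CPM of Ighm. They had 294 and 228 CPM of Ighd and 130 and 257 CPM of Jchain.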
